A study of Homo sapiens with 24 samples.

Results

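KRT23, ANXA1, GLIPR1 and PALMD are 4 genes whose expression differed widely between arrays of Huh7.5.1 cells, among 18274 genes measured. They were chosen by the SD of their values over all 24 arrays, which placed them among the most variable genes, and each was read from its 1 probe set. Their spread over the arrays is therefore a description and not a finding. Huh7.5.1 is a human hepatoma line. The cells received silymarin, a flavonolignan mixture from milk thistle, or DMSO, the solvent control. All titles include the word novirus. The groups were DMSO for 4 h (4 arrays), silymarin for 4 h (4), DMSO for 8 h (5), silymarin for 8 h (3), DMSO for 24 h (5) and silymarin for 24 h (3). The labels give no silymarin dose and do not say that replicates were separate cultures, so p-values measure only the spread between these samples, which may be technical.

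The 4 genes encode unrelated proteins. KRT23 is a type I keratin, an acidic subunit of the intermediate filaments of epithelial cells. ANXA1 encodes annexin A1, a calcium-dependent phospholipid-binding protein that glucocorticoids induce and that restrains inflammation through formyl peptide receptors and cytosolic phospholipase A2. GLIPR1 belongs to the CAP superfamily of cysteine-rich proteins and is known as a p53 target. PALMD, palmdelphin, is the cytosolic member of the paralemmin family. Each was also set beside DDIT4, a stress-induced inhibitor of mTORC1, and CXCL8, the neutrophil chemokine interleukin 8.

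Array medians lay between 7.04 and 7.18 on the log2 scale. Precision is limited by how few arrays each group holds. The cells carried hepatocyte markers, with means from 11.4 to 13.3 in 8 of 8 measured genes including ALB and APOB. Against the median of all values, 7.11, endothelial, fibroblast and T cell markers had 1 of 7 genes each at or above it, and macrophage markers 2 of 5, LYZ and CD68. Cholangiocyte and progenitor markers had 3 of 7 (SOX9, EPCAM and PROM1), while KRT7 averaged 6.80 and KRT19 6.83. DMSO replicates 1 and 4 at 8 h were the only arrays among the 5 lowest of 24 for each of the 4 genes. SD ranks, group means, differences and counts of passing correlations of the 4 genes that rest on them are also given without them.

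KRT23 had the highest SD of the 4, 0.88 over the arrays, at rank 5 of 18274. In DMSO it read 7.01, 8.79, 8.44 and 8.26 at 4 h, 6.79, 7.98, 9.06, 6.998 and 7.76 at 8 h, and 7.61, 9.04, 8.59, 8.98 and 8.49 at 24 h, in order of replicate number. In silymarin it read 8.77, 9.43, 9.87 and 7.96 at 4 h, 7.84, 8.30 and 7.53 at 8 h, and 7.78, 9.29 and 10.08 at 24 h. The groups overlapped at every time point, and single arrays of 1 label stood as far apart as 7.78 and 10.08 in silymarin at 24 h. Its highest array was 9.83-fold above its lowest. The lowest was DMSO replicate 1 at 8 h and the highest silymarin replicate 3 at 24 h. Group means ran in the order DMSO 8 h (7.72 ± 0.90, SD, n = 5), silymarin 8 h (7.89 ± 0.39, n = 3), DMSO 4 h (8.13 ± 0.78, n = 4), DMSO 24 h (8.54 ± 0.57, n = 5), silymarin 4 h (9.01 ± 0.83, n = 4) and silymarin 24 h (9.05 ± 1.17, n = 3). No neighbours in that order differed by more than the larger of their SDs, while the first and last differed by 1.34, more than the larger SD. Without DMSO replicates 1 and 4 at 8 h, that group's mean was 8.27 ± 0.70 (SD, n = 3), silymarin at 8 h was lowest, and the full distance of 1.16 was below the larger SD.

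ANXA1 ranked 7 by SD (0.80) and spanned 9.94-fold. Its values in DMSO were 7.57, 8.90, 8.48 and 9.03 at 4 h, 7.80, 8.62, 9.40, 6.60 and 8.27 at 8 h, and 8.88, 9.79, 8.84, 8.09 and 7.95 at 24 h. In silymarin they were 9.59, 9.11, 9.35 and 8.22 at 4 h, 8.17, 8.81 and 8.23 at 8 h, and 7.89, 9.64 and 9.91 at 24 h. The single reading of 6.60 in DMSO replicate 4 at 8 h was the lowest, and the labels overlapped at each time point. Its group means ran in the same order as those of KRT23, from 8.14 ± 1.04 (SD, n = 5) in DMSO at 8 h to 9.15 ± 1.10 (n = 3) in silymarin at 24 h. That full distance of 1.01 was smaller than the larger SD of those groups. Without the same DMSO arrays at 8 h the mean there was 8.76 ± 0.58 (SD, n = 3), and silymarin at 8 h was lowest.

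GLIPR1, with an SD of 0.78 and rank 10, was split by a few low arrays. In DMSO it read 8.58, 10.25, 8.64 and 9.41 at 4 h, 7.77, 9.31, 10.18, 7.37 and 9.89 at 8 h, and 9.51, 10.11, 10.43, 9.93 and 10.002 at 24 h. In silymarin it read 10.23, 10.28, 9.80 and 9.67 at 4 h, 9.87, 9.25 and 8.94 at 8 h, and 9.73, 9.93 and 9.76 at 24 h. Most arrays lay above 9, and the lowest readings came from DMSO at 8 h and 4 h. The 3 silymarin arrays at 24 h lay close together (SD 0.11), where the other members had SDs of 0.89 to 1.17. Means ran from 8.90 ± 1.26 (SD, n = 5) in DMSO at 8 h to 9.996 ± 0.33 (n = 5) in DMSO at 24 h, again with no neighbours further apart than the larger SD. Without replicates 1 and 4 the DMSO mean at 8 h was 9.79 ± 0.44 (SD, n = 3), and DMSO at 4 h was lowest.

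PALMD had an SD of 0.75, rank 11, and spanned 7.02-fold. Its DMSO values were 8.21, 9.52, 8.97 and 8.39 at 4 h, 7.79, 8.71, 9.68, 7.33 and 8.03 at 8 h, and 8.65, 9.55, 9.19, 9.02 and 8.81 at 24 h. Its silymarin values were 8.88, 10.15, 9.88 and 9.16 at 4 h, 8.62, 8.83 and 7.56 at 8 h, and 8.02, 9.63 and 9.50 at 24 h. Silymarin replicate 2 at 4 h was highest, and silymarin and DMSO overlapped at each time point. Across time points, the highest silymarin array at 8 h (8.83) lay just below the lowest at 4 h (8.88). These groups were not tested against each other, and the share of all genes so separated was not taken. Means lay between 8.31 ± 0.91 (SD, n = 5) in DMSO at 8 h and 9.52 ± 0.60 (n = 4) in silymarin at 4 h, and here too no neighbours in the order of means lay further apart than the larger SD. The lowest and highest means differed by 1.21, more than the larger SD. Without DMSO replicates 1 and 4 the mean at 8 h was 8.80 ± 0.83 (SD, n = 3). Silymarin at 8 h was then lowest, and the full distance of 1.18 still exceeded the larger SD.

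**Figure D1:**
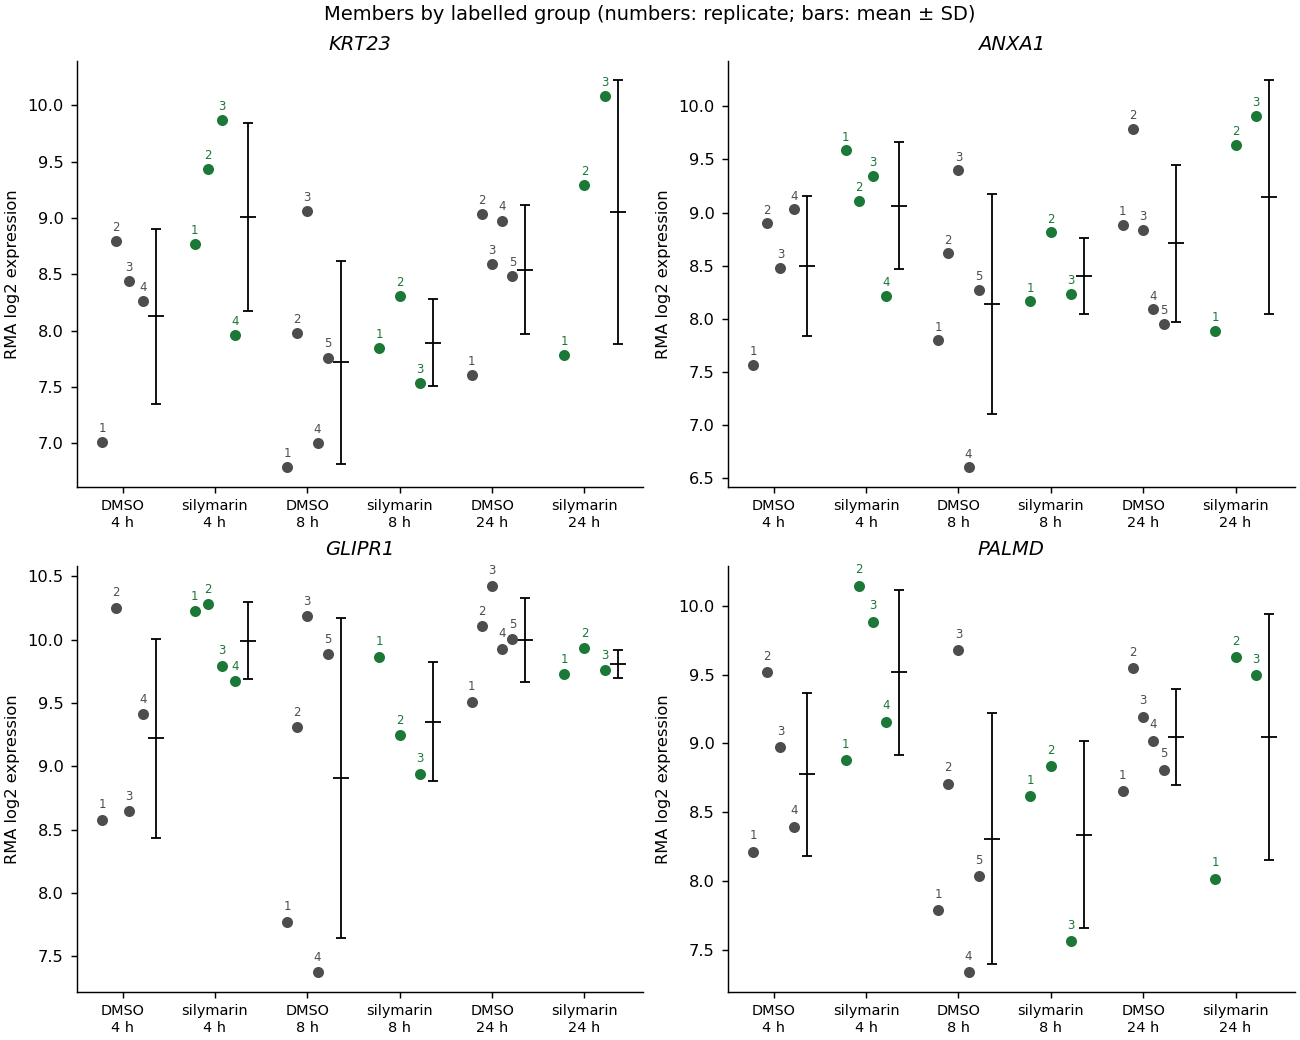
Log2 expression of KRT23, ANXA1, GLIPR1 and PALMD (vertical axes) in the 6 labelled groups (horizontal axes), 1 point per array with its replicate number, and the mean ± SD of each group beside it. The arrays of one label spread widely, as with KRT23 from 7.78 to 10.08 in silymarin at 24 h, and the labels overlap at each time point.

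The order by SD had no fixed threshold. Between these genes stood IL18 (0.82), CTH (0.79) and TGFB2 (0.78), and directly after PALMD came TNFRSF9 (0.73) and CXCL8 (0.72). The median SD of all genes was 0.13. Without DMSO replicates 1 and 4 at 8 h, the ranks over 22 arrays were 5 for KRT23, 13 for ANXA1, 14 for PALMD and 52 for GLIPR1. The SD of GLIPR1 then fell to 0.51, while that of KRT23 was 0.79.

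Silymarin was compared with DMSO at each time point to ask how the treatment changed expression. At 4 h the means of all 4 genes were higher in silymarin, but none passed. KRT23 differed by 0.88 on the log2 scale (95% confidence interval -0.16 to 1.92), GLIPR1 by 0.77 (-0.17 to 1.71), PALMD by 0.74 (-0.15 to 1.63) and ANXA1 by 0.57 (-0.47 to 1.61). limma called 0 of the 4, with adjusted p = 0.99993 for each, against 0% of the 18274 genes called. No member had groups that did not overlap, which 2.18% of all genes had. The uncorrected p lay between 0.0919 for KRT23 and 0.268 for ANXA1, where 2.48% of genes had an uncorrected p under 0.05. In the same comparison CXCL8 differed by 0.81 (-0.02 to 1.65) and DDIT4 by -0.34 (-1.94 to 1.25). DMSO replicate 1 was the lowest array of its group in all 4 genes, and without it the differences were 0.51 for KRT23, 0.26 for ANXA1 and 0.56 for GLIPR1.

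At 8 h the differences were smaller than at 4 h in value, 0.45 for GLIPR1 (95% confidence interval -0.52 to 1.42), 0.27 for ANXA1 (-0.81 to 1.34), 0.18 for KRT23 (-0.89 to 1.25) and 0.03 for PALMD (-0.89 to 0.95). limma called 0 of the 4 members (adjusted p from 0.991 to 0.997) and 0% of all genes. Groups overlapped in all 4 members, and 2.93% of all genes had groups that did not. No member had an uncorrected p under 0.05, where 3.93% of genes did. Every one of these signs turned when DMSO replicates 1 and 4 were left out, to -0.44 for GLIPR1, -0.36 for ANXA1, -0.37 for KRT23 and -0.47 for PALMD, with limma's adjusted p = 0.99982 for each.

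At 24 h KRT23 differed by 0.51 (95% confidence interval -0.56 to 1.58), ANXA1 by 0.44 (-0.64 to 1.51), PALMD by 0.003 (-0.92 to 0.92) and GLIPR1 by -0.19 (-1.16 to 0.78). limma called 0 of the 4 members, with adjusted p = 0.9997 for each, and 0% of all genes. No member's groups were free of overlap, against 1.95% of all genes, and none had an uncorrected p under 0.05, against 3.03%. Silymarin replicate 1 was the low array for KRT23, ANXA1 and PALMD. Without it KRT23 differed by 1.15, ANXA1 by 1.06 and PALMD by 0.52, and without silymarin replicate 3 KRT23 differed by -0.002.

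In DMSO alone, the 4 genes were lower at 8 h than at 4 h in mean value, by -0.47 for PALMD, -0.41 for KRT23, -0.36 for ANXA1 and -0.32 for GLIPR1. limma called 0 of the 4 (adjusted p from 0.781 to 0.861) and 0% of all genes. Those signs also turned without DMSO replicates 1 and 4 at 8 h, to 0.03, 0.14, 0.27 and 0.57. At 24 h against 4 h the differences were 0.77 for GLIPR1 (SE 0.43), 0.41 for KRT23, 0.27 for PALMD and 0.22 for ANXA1, with 0 of 4 and 0% of all genes called and limma's adjusted p = 0.99992 for each. The 4 genes' groups overlapped in both DMSO comparisons, while 2.24% and 0.646% of all genes had groups that did not. No member had an uncorrected p under 0.05 in either, against 6.5% and 1.7% of all genes. The change of the silymarin difference between time points was tested as an interaction. limma called none of the 4 genes, nor any other gene (0%), with estimates between -0.96 for GLIPR1 (SE 0.65, 4 h to 24 h) and 0.34 for KRT23 (SE 0.73, 8 h to 24 h). None of the 4 had an uncorrected p under 0.05, against 2.37% of all genes for 4 h to 8 h, 4.08% for 8 h to 24 h and 3.02% for 4 h to 24 h. Comparisons at one time point share their DMSO arrays with the DMSO time course and with the interactions.

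**Figure D2:**
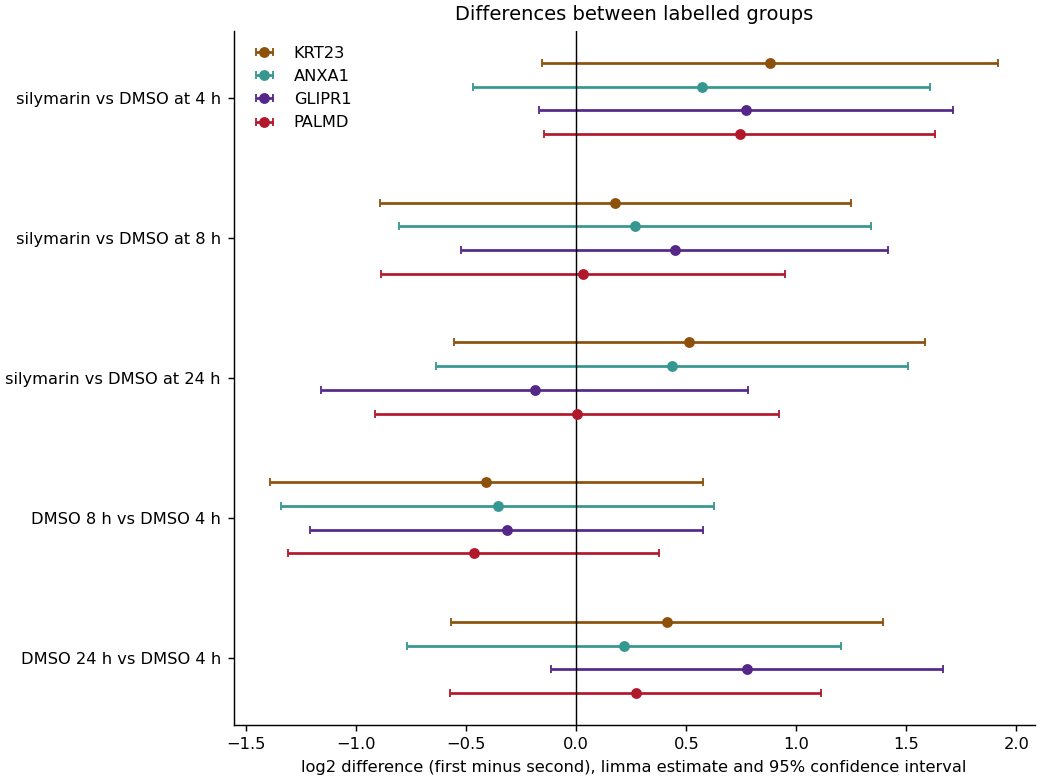
Log2 differences of the 4 genes (horizontal axis, points with 95% confidence intervals from limma) in each of 5 comparisons between labelled groups (vertical axis). All intervals cross 0, from the 0.88 of KRT23 in silymarin against DMSO at 4 h to the -0.47 of PALMD in DMSO at 8 h against 4 h.

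The labelled groups accounted for 35.1% of the sum of squares of KRT23 over the 24 arrays, 34.0% for PALMD, 32.8% for GLIPR1 and 20.8% for ANXA1. Over all genes the median was 23.2%, with 5th and 95th percentiles of 6.75% and 45.9%. The larger share of the spread of each member thus lay between arrays that carried the same label.

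DDIT4 was set beside the 4 genes because it also ranked among the most variable genes (SD 1.14, rank 2). Its values fell on both sides of a gap of 1.32, between 8.35 and 9.67, with 14 arrays below and 10 above, and every labelled group had arrays on both sides. In silymarin at 24 h, replicate 1 had DDIT4 at 10.16 with KRT23 at 7.78 and PALMD at 8.02. Replicates 2 and 3 had DDIT4 at 8.15 and 8.35, KRT23 at 9.29 and 10.08, and PALMD at 9.63 and 9.50. GLIPR1 was 9.73, 9.93 and 9.76 in the same 3 arrays. DMSO at 24 h went another way: replicate 3 alone had high DDIT4 (10.30), with GLIPR1 at 10.43, the highest of all arrays, and KRT23 at 8.59 between the other readings of its group. At 8 h in DMSO, replicates 1, 4 and 5 had DDIT4 at 9.67, 10.28 and 10.11, and GLIPR1 was 7.77, 7.37 and 9.89 in them. Over the 14 arrays below the gap, PALMD ran from 8.65 to 10.15 (median 9.33), and over the 10 above it from 7.33 to 9.19 (median 8.12). KRT23 ran from 7.61 to 10.08 (median 8.89) and from 6.79 to 8.77 (7.77), ANXA1 from 7.95 to 9.91 (8.89) and from 6.60 to 9.59 (8.20), and GLIPR1 from 8.64 to 10.28 (9.86) and from 7.37 to 10.43 (9.57). The sides overlapped for each gene. They were cut on a measured gene and are no labelled groups, so no test was made between them.

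**Figure D3:**
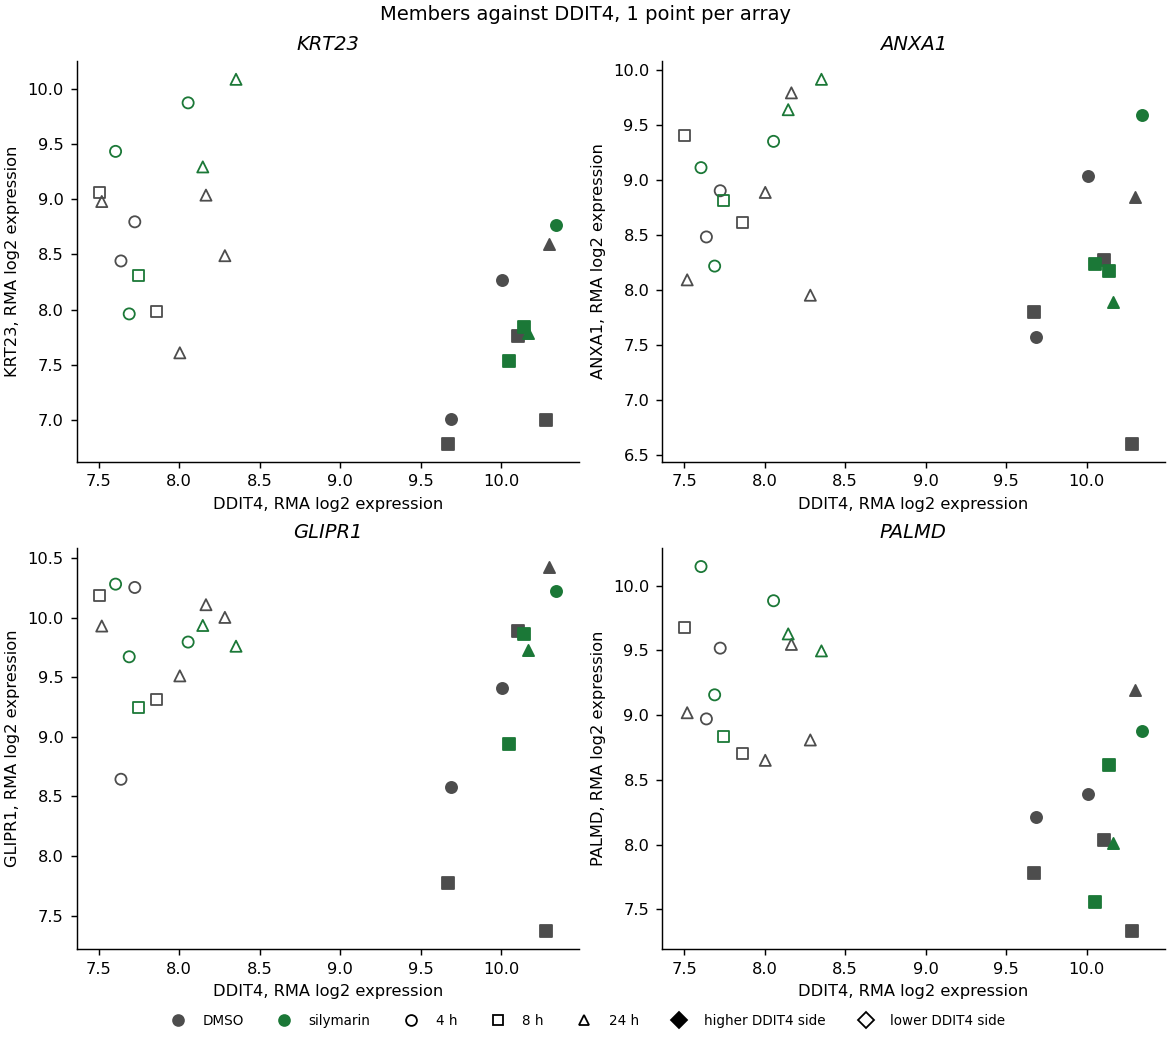
Log2 expression of each of the 4 genes (vertical axes) against DDIT4 (horizontal axes), 1 point per array, coloured by treatment, shaped by time and filled where DDIT4 lies above its gap. The 14 arrays below 8.35 and the 10 above 9.67 form separate clusters, and GLIPR1 spans 7.37 to 10.43 among the 10.

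Because of that gap, correlations were taken within the 14 and within the 10 arrays, for 14 pairs of genes each and 28 tests in all. With Benjamini-Hochberg adjustment over the 28, 13 pairs passed by Pearson's r and 11 by Spearman's rho. The share of other gene pairs that would pass in the same arrays was not taken, so these counts do not set the members apart. These tests concern the arrays of one side only and leave out the levels on the other. Within a side, DDIT4 passed with none of the 4 genes on the values as deposited. Its r with them was -0.03 to 0.39 within the 14 arrays and 0.29 to 0.68 within the 10, and the smallest adjusted permutation p was 0.0550, with KRT23 among the 10 (r = 0.68, rho = 0.61). With the arrays re-centred to 1 median, DDIT4 and KRT23 passed within the 10 (r = 0.72, adjusted permutation p = 0.0348). Without DMSO replicates 1 and 4 at 8 h, DDIT4 and GLIPR1 had r = 0.91 over the remaining 8 arrays (rho = 0.86, exact permutation p = 0.000843, adjusted 0.00787, and 0.0599 by rho), and DDIT4 and KRT23 r = 0.85 (exact permutation p = 0.00737, adjusted 0.0413). Leaving out the 2 arrays farthest in DDIT4 instead, DMSO replicate 1 at 8 h and DMSO replicate 1 at 4 h, gave 0.27 for KRT23 and 0.07 for GLIPR1.

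CXCL8, a target of the inflammatory transcription factor NF-kB, followed GLIPR1 on both sides. Within the 14 arrays r was 0.83 (rho = 0.76, permutation p = 0.00051, adjusted 0.00609), and within the 10 it was 0.88 (rho = 0.71, permutation p = 0.00113, adjusted 0.00633, and 0.0614 by rho). Without the 2 arrays farthest in CXCL8, r was 0.63 (adjusted permutation p = 0.116) and 0.68 (adjusted exact permutation p = 0.155). Neither passed without those arrays, with fewer arrays left and a narrower range of CXCL8. The arrays left out were DMSO replicate 3 at 4 h and DMSO replicate 1 at 24 h among the 14, and DMSO replicates 1 and 4 at 8 h among the 10. KRT23 and CXCL8 had r = 0.84 within the 10 (rho = 0.83, permutation p = 0.00309, adjusted 0.0144), but 0.69 without the same DMSO arrays at 8 h (adjusted exact permutation p = 0.155), and 0.30 within the 14 (adjusted permutation p = 0.389). ANXA1 and CXCL8 had r = 0.07 within the 14 arrays and 0.68 within the 10, and PALMD and CXCL8 0.45 and 0.69, none of which passed on the values as deposited. With the arrays re-centred to 1 median, both pairs passed within the 10 (adjusted permutation p = 0.0462 for ANXA1 and 0.0448 for PALMD). The difference in r between the sides was not tested.

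**Figure D4:**
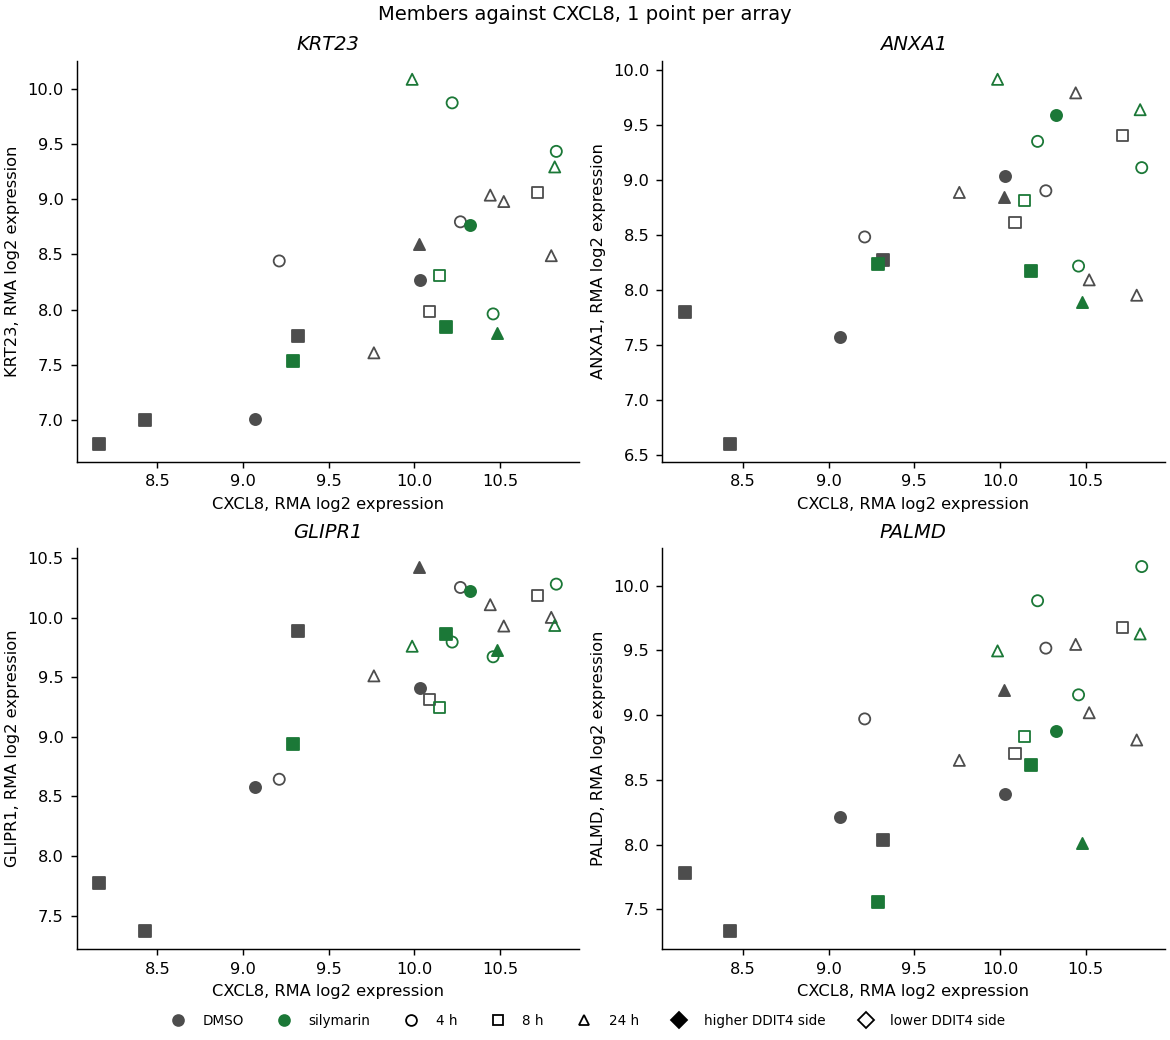
Log2 expression of each of the 4 genes (vertical axes) against CXCL8 (horizontal axes), 1 point per array, with colours, shapes and fill as for DDIT4. GLIPR1 follows CXCL8 among open points (r = 0.83, 14 arrays) and filled points (r = 0.88, 10 arrays), where DMSO replicates 1 and 4 at 8 h lie at the lower left.

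Among the members, KRT23 and PALMD had the highest r within the 14 arrays, though not within the 10. Their r was 0.80 within the 14 arrays (rho = 0.81, permutation p = 0.00066, adjusted 0.00609) and 0.80 within the 10 (rho = 0.84, permutation p = 0.00539, adjusted 0.0168). Within the 14, this was the 1 pair of all 28 tests that still passed without the 2 arrays farthest on the first gene of the pair (r = 0.84, adjusted permutation p = 0.0238). Within the 10, r was 0.77 without silymarin replicate 1 at 4 h and DMSO replicate 1 at 8 h (adjusted exact permutation p = 0.116), and 0.73 without DMSO replicates 1 and 4 at 8 h.

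For the other member pairs the values on the 2 sides are given in turn, and the difference between sides was not tested. KRT23 and ANXA1 had r = 0.64 within the 14 arrays (rho = 0.68, adjusted permutation p = 0.0345) and 0.87 within the 10 (rho = 0.85, adjusted permutation p = 0.00609). ANXA1 and GLIPR1 had r = 0.30 within the 14, which did not pass (adjusted permutation p = 0.389), and 0.79 within the 10 (adjusted permutation p = 0.0168). KRT23 and GLIPR1 had 0.46, not passing, and 0.88 (adjusted permutation p = 0.00609). PALMD passed with ANXA1 (r = 0.63 and 0.75) and with GLIPR1 (0.63 and 0.80) on both sides by Pearson's r, but by rho it did not pass with ANXA1 within the 10 (rho = 0.67, adjusted permutation p = 0.0829). Of these pairs, none passed without the 2 arrays farthest on the first gene, and leaving out DMSO replicates 1 and 4 at 8 h kept 4 of the 13 passing pairs. Those 2 DMSO arrays are among the 10, so r within the 14 stayed the same. There KRT23 and ANXA1, ANXA1 and PALMD, and GLIPR1 and PALMD were lost only through the adjustment over all 28 tests (adjusted permutation p = 0.0510 for each). With the labelled group means removed, 8 of the 13 passed.

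ANXA1 and PALMD had a promoter sequence in the RefSeq table used here (GRCh38.p14), as did CXCL8, whose promoter is a textbook NF-kB target and is shown for comparison. The 250 bases before each annotated start are given 5′ to 3′ on the plus strand, ANXA1 at chr9:73151615-73151864, PALMD at chr1:99645863-99646112 and CXCL8 at chr4:73740319-73740568. Capitals mark every match, on either strand, to any of 7 motifs. The TATA box was searched as TATAAA. The site of the stress-responsive factor AP-1 was searched as TGANTCA. For the NF-kB site the letters were GGAANTTCC, and for the CARE element bound by ATF4 they were TGATGNAA. The CCAAT box was searched by the letters of its name. For the TEAD factors the search used GGAATG, and the glucocorticoid receptor element was searched in its palindromic form. None of the matches overlapped another.
ANXA1: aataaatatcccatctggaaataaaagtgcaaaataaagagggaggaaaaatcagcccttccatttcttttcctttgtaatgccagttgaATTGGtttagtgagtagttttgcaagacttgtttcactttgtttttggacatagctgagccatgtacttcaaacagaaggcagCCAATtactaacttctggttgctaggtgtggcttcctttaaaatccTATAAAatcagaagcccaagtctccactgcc
PALMD: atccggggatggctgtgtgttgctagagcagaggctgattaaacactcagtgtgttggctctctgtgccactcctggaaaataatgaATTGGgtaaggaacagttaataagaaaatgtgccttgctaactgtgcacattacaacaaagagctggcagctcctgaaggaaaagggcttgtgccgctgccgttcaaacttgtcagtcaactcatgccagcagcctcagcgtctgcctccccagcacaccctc
CXCL8: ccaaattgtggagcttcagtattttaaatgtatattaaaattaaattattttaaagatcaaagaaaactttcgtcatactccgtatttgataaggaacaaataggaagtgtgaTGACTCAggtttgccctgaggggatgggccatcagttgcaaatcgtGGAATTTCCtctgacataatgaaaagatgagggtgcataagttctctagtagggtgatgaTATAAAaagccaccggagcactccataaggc

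CXCL8 held an AP-1 match 137 bases before its start, an NF-kB match at 91 and a TATA box at 31. ANXA1 also had a TATA box at 31 bases before the start, with CCAAT matches at 160 and 77, and PALMD had a CCAAT match at 163. Among 35116 RefSeq promoters of the same length, 10.7% held TATAAA, 6.57% the AP-1 letters, 0.826% the NF-kB letters, 3.14% the CARE letters, 32.0% CCAAT, 11.9% GGAATG and 0.327% the glucocorticoid receptor element. A match is a run of letters and not a shown binding site, and these windows say nothing about sites elsewhere. GC content was 38.4% for ANXA1, 50.4% for PALMD and 37.6% for CXCL8, against a median of 58.0% over those promoters, and the ANXA1 window held 0 CG dinucleotides.

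Genes of most similar pattern were taken as those with the highest Pearson r over the 24 arrays. This is a description with no p, since the arrays share the DDIT4 clusters. These r were not taken without DMSO replicates 1 and 4 at 8 h. The same holds for r of these genes within the 10 arrays and for later r over 24 arrays. Any of them may therefore rest on those DMSO arrays. The 5 nearest to each member were 20 different genes with r from 0.92 to 0.95. For KRT23 they were CCDC50 (0.95), the adaptor NOSTRIN (0.94), the monoacylglycerol lipase MGLL (0.94), the autophagy regulator DRAM1 (0.94) and the small GTPase RAB8B (0.93). Of these NOSTRIN varied most, from 7.65 to 9.64, with r = 0.90 within the 14 arrays and 0.97 within the 10. The lowest r belonged to CREG1 (-0.92) and to FUCA1 (-0.90), a lysosomal fucosidase.

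ANXA1 was most like SYTL5 (0.93), an effector of vesicle traffic, MICAL2 (0.93), an enzyme that oxidises actin, RHOBTB1 (0.93), the collagen chain COL5A2 (0.93) and the Rap activator RAPGEF5 (0.92). Its lowest r were with FGA (-0.92), the fibrinogen alpha chain, and the lysosomal protease CTSA (-0.88). FGA nonetheless moved within a narrow range, 12.26 to 12.90. SYTL5 followed ANXA1 within the 14 arrays (r = 0.94) and within the 10 (0.90).

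GLIPR1 was most like HYI (0.94), the TNF receptor family member TNFRSF9 (0.94), the protease inhibitor TFPI2 (0.94), the interferon-inducible GTPase GBP2 (0.94) and vinculin, VCL (0.93). GBP2 ranged from 5.57 to 8.18, with r = 0.92 within the 14 arrays and 0.95 within the 10. The kinase MAPK12 (-0.90) and the translation factor EIF4B (-0.85) had the lowest r. PALMD was most like the scaffold protein LIN7A (0.95), the phosphate transporter SLC17A1 (0.94), the ribosome biogenesis factor RRP15 (0.93), the phosphatase subunit PPP2R1B (0.93) and ZNF532 (0.93), and least like NECAB3 (-0.92) and the phosphatase PTPN18 (-0.91). SLC17A1 fell as low as 5.40 and reached 7.40.

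The members were not each other's nearest genes. Among 18273 other genes ranked by r with KRT23, PALMD stood at 39, ANXA1 at 231 and GLIPR1 at 777. Ranked by r with GLIPR1, PALMD stood at 336, KRT23 at 397 and ANXA1 at 494.

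Relatives of the 4 genes varied little between arrays. Of 11 measured annexins, 2 lay among the 5% of genes with the highest SD, ANXA1 itself, chosen for it, and ANXA3 (SD 0.65, rank 25, range 8.18 to 11.03). The other annexins had SDs between 0.07 (ANXA5) and 0.16 (ANXA13). ANXA3 was closest in pattern to GLIPR1 (r = 0.92 over 24 arrays) and less so to ANXA1 (0.84). Apart from KRT23, the 15 measured type I keratins had SDs from 0.08 to 0.19, and the filament partners of hepatocytes KRT8 and KRT18 had 0.12 and 0.17. In the CAP superfamily GLIPR1 and CRISPLD2 (SD 0.27, rank 714) were 2 of 11 in the top 5%, and GLIPR1L1 and GLIPR1L2 had SDs of 0.08 each. PALM and PALM3 had 0.12 and 0.14.

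Annexin A1 acts through formyl peptide receptors, whose genes read low here, with means of 5.52 for FPR1, 4.48 for FPR2 and 4.71 for FPR3, all below the median of all values. PLA2G4A, the cytosolic phospholipase A2 that annexin A1 restrains, varied more (SD 0.43, rank 145, range 6.24 to 8.04) and had r = 0.71 with ANXA1 and 0.76 with KRT23 over 24 arrays. The glucocorticoid receptor NR3C1 averaged 8.52 (SD 0.22). Of 10 measured glucocorticoid targets 0 lay in the top 5% by SD, with CEBPD highest at 0.24 and TSC22D3 at 0.21. Of 20 p53 targets, 4 did: SESN2 (0.51), GDF15 (0.47), TP53INP1 (0.40) and GADD45A (0.26), while CDKN1A and MDM2 had 0.09 and 0.11. SESN2 is also counted in the list of ATF4 and stress response genes. Over 24 arrays the r of those 4 with GLIPR1 was -0.18, 0.19, -0.13 and 0.21 in that order. Across the p53 list it ran from -0.49 (BBC3) to 0.73 (DDB2).

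**Figure D5:**
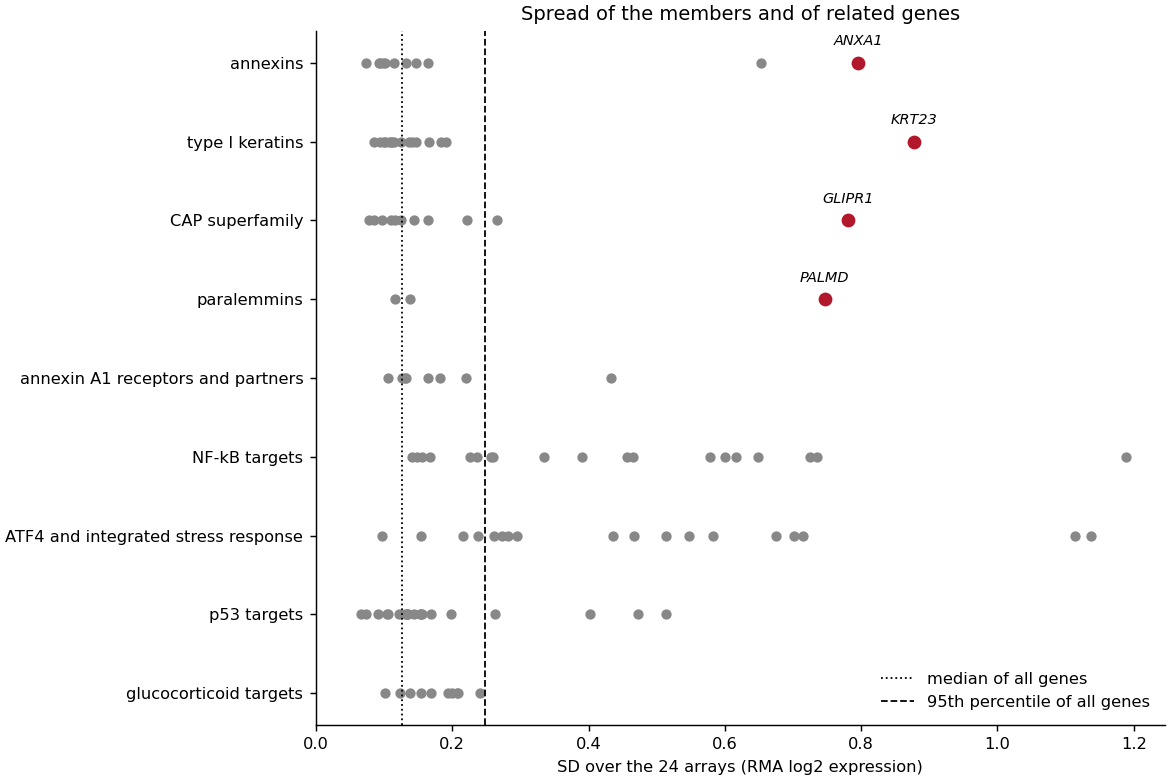
SD over the 24 arrays (horizontal axis, RMA log2 scale) of the genes in each list (vertical axis), with the 4 genes in red and the median and 95th percentile of all genes as dotted and dashed lines. The 4 genes lie between 0.75 and 0.88, far from most relatives, with ANXA3 at 0.65 the exception among annexins, while the NF-kB and ATF4 lists spread beyond the dashed line.

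NF-kB targets, the list that holds CXCL8, had 13 of 19 measured members in the top 5% by SD, and ATF4 and stress response genes, the list that holds DDIT4, had 14 of 18. CXCL10 (1.19) and TNFRSF9 (0.73) had the highest SDs of the first list, and DDIT4 and CHAC1 (1.11) of the second. In silymarin against DMSO at 4 h, 18 of the 19 NF-kB targets lay above 0 (median 0.37), where 47.5% of all genes lay above 0 with a median of -0.01. Annexins had 9 of 11 above 0 (median 0.04), type I keratins 5 of 16 (-0.05), the CAP superfamily 7 of 11 (0.04), glucocorticoid targets 7 of 10 (0.08), p53 targets 8 of 20 (-0.02) and ATF4 genes 6 of 18 (-0.08). DMSO replicates 1 and 3 at 4 h ranked 3 and 4 of 24 from the lowest in CXCL8 (9.07 and 9.21). The counts at 4 h were not taken without them. At 8 h NF-kB targets had 18 of 19 above 0 (median 0.35) and ATF4 genes 10 of 18 (0.05), where 42.0% of all genes lay above 0. These counts at 8 h were not taken without DMSO replicates 1 and 4, the arrays lowest in CXCL8 of all 24 (8.16 and 8.43). Without them CXCL8 averaged 10.04 in DMSO at 8 h (SD 0.70, n = 3), against 9.87 in silymarin. At 24 h ATF4 genes had 16 of 18 above 0 (median 0.18) and NF-kB targets 9 of 19 (-0.02), where 56.0% of all genes lay above 0. limma called 0 members of any list in either direction at 4 h, 8 h or 24 h, against 0% of all genes.

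Markers of hepatocytes and of other cell types were set beside the members. Over 24 arrays, hepatocyte markers had r with KRT23 from -0.60 (ALB) to 0.38 (TTR), and with ANXA1 from -0.78 (ALB) to 0.65 (TTR). Only TTR and TF had positive r with KRT23, and only TTR with ANXA1. Hepatocyte markers varied little, with SDs from 0.04 (TF) to 0.17 (TTR). The mean level of the 7 cholangiocyte and progenitor markers ranged from 7.93 to 8.10 in DMSO and 7.95 to 8.22 in silymarin at 4 h, 7.81 to 8.30 and 7.88 to 8.05 at 8 h, and 7.95 to 8.22 and 7.89 to 8.30 at 24 h. Among them PROM1, a progenitor surface protein, varied most (SD 0.39), with r = 0.70 with KRT23 and 0.90 with ANXA1 over 24 arrays. EPCAM had r = 0.70 with KRT23, CFTR 0.65, SPP1 0.60 and SOX9 0.57, but KRT7 had 0.04 and KRT19 0.02. Of the macrophage markers LYZ had r = 0.63 with KRT23, while CD68 had -0.06, CSF1R -0.002, MARCO -0.10 and CD163 -0.32. PDGFRB, a stromal receptor with a mean of 6.93, had r = 0.80 with KRT23, 0.87 with ANXA1 and 0.81 with PALMD. The other fibroblast markers did not follow it, with r from -0.31 (COL3A1) to 0.10 (ACTA2) with KRT23. The endothelial PECAM1, with a mean of 6.89, had 0.66 with KRT23, while the other endothelial markers had -0.22 (TEK) to 0.02 (KDR). The part of any marker in the spread of the members was not tested. Endothelial markers averaged 5.81 to 6.33 over the arrays, fibroblast markers 5.95 to 6.27, T cell markers 5.89 to 6.20 and macrophage markers 7.64 to 7.93.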

How the data were processed

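RNA of Huh7.5.1 cells was measured on 24 Affymetrix Human Gene 1.0 ST arrays. The authors' deposited values are on a log2 scale, and the submitters' processing notes name RMA and oligo without versions. RMA subtracts background, equalises the distributions of the arrays by quantiles and combines the probes of a set. The build behind the annotation is not given in the sources used here. Values were used as deposited.

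Of 28869 probe sets, GEO's annotation of the array named 19302 with 1 symbol and 1729 with several, and did not list 7838. The probe set with the highest mean was kept per gene, leaving 18274 genes. One limma 3.58.1 model in R 4.3.3 with 6 group means was fitted to all arrays (18 residual degrees of freedom). Tests were two-sided, with Benjamini-Hochberg adjustment over all genes and a threshold of 0.05. Correlations used 100000 permutations, or all of them under 10 arrays, two-sided. Promoters and motifs came from RefSeq, where 2 of the 4 members matched. Scripts were tested on simulated data. Figures used matplotlib 3.10.9 in Python 3.11.15.

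Members, reference genes and the 16 gene lists were chosen with earlier results of these data known. Named genes were the members, DDIT4 and CXCL8, the 5 genes of highest and 2 of lowest r with each member, the close relatives, and the 4 genes of highest SD in each other list, of which the text gives examples. IL18, CTH, TGFB2 and the single markers and targets outside that rule were named after their values were seen. Alternatives were scaling, a filter on genes with every group mean under 7.11, probe set choice, variance model, array weights, fewer groups, the replicate number as a block, and each array left out. Same-numbered arrays at one time point had deviations that correlated between -0.14 and 0.43, so the numbers were not taken as pairs. Leaving out DMSO replicates 1 and 4 at 8 h together was added after seeing the data.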

Additional observations from a re-analysis of the deposited data

Results flagged for a closer look

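DDIT4 read 10.34 in silymarin replicate 1 at 4 h, far from the other 3 arrays of its group at 7.60 to 8.05. KRT23 in that array was 8.77, ANXA1 9.59, GLIPR1 10.23 and PALMD 8.88.

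DDIT4 read 10.30 in DMSO replicate 3 at 24 h, far from the other 4 arrays at 7.52 to 8.28, and GLIPR1 was 10.43 there. By the gap to the nearest array over the range of the group (Dixon's test), these 2 stood out among 24 combinations of gene and group of at least 4 arrays, where chance gives about 5%. Each was the only array of its group above the DDIT4 gap, so the flags restate that gap, for which the 5% makes no allowance. None of the 4 members had a flagged array in those groups, and groups of 3 arrays were not tested.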

How the results depend on the processing

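No member passed in any of the 8 comparisons under any alternative, with limma's smallest adjusted p = 0.695. At 24 h silymarin against DMSO called 1 gene after repeated quantile normalization and 1 after cyclic loess, in place of 0. Signs of PALMD at 24 h turned on re-centring (-0.019) and repeated quantile normalization (-0.0014). The replicate number as a block gave -0.22 there, and -0.030 for ANXA1 and -0.19 for PALMD at 8 h; it moved no count of calls. Array weights turned the change of ANXA1 to 0.0040 (8 h against 4 h) and 0.23 (24 h against 4 h). Without DMSO replicates 1 and 4 at 8 h the silymarin differences at 8 h were -0.37 for KRT23, -0.36 for ANXA1, -0.44 for GLIPR1 and -0.47 for PALMD, those of DMSO at 8 h against 4 h 0.14, 0.27, 0.57 and 0.031, and the changes from 8 h to 24 h 0.25 for GLIPR1 and 0.47 for PALMD. Leaving out each array in turn, silymarin at 8 h ranged from -0.12 to 0.58 for ANXA1, -0.057 to 0.51 for KRT23 and -0.22 to 0.42 for PALMD, and at 24 h from -0.0020 to 1.15 for KRT23 and -0.29 to 0.52 for PALMD. DMSO at 8 h against 4 h ranged from -0.67 to 0.026 for ANXA1 and -0.64 to 0.066 for GLIPR1, and at 24 h from -0.093 to 0.41 for ANXA1. The change in the silymarin difference between 4 h and 8 h ranged from -0.69 to 0.013 for ANXA1. Between 4 h and 24 h it ranged from -0.52 to 0.49 for ANXA1 and -0.88 to 0.27 for KRT23, and between 8 h and 24 h from -0.22 to 0.80 for ANXA1, -0.18 to 0.97 for KRT23 and -0.41 to 0.49 for PALMD.

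Of the 28 correlations, 13 passed as reported, 8 with group means removed, 1 without the 2 arrays farthest on the first gene and 6 without the 2 DMSO arrays at 8 h, and 16 after re-centring. Re-centring added DDIT4 with KRT23, CXCL8 with ANXA1 and CXCL8 with PALMD, each within the 10. Correlations that turned sign were small: DDIT4 and PALMD within the 14 arrays (0.019 re-centred, 0.051 without 2 arrays), CXCL8 and ANXA1 there (-0.049 with group means removed, -0.16 without 2 arrays), and, with group means removed, DDIT4 and GLIPR1 there (-0.12) and DDIT4 with ANXA1 (-0.051) and PALMD (-0.041) within the 10. The share of variance between labelled groups was 29.1% for KRT23, 15.9% for ANXA1, 38.2% for GLIPR1 and 29.1% for PALMD without the 2 DMSO arrays at 8 h. With each array left out it ranged from 31.2% to 47.7%, 16.3% to 34.5%, 27.5% to 45.7% and 28.1% to 49.4% in that order. Apart from the adjustment over all 28 correlations, the cause of these changes was not tested.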

Other observations

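KRT8 and KRT18, the keratin pair of hepatocytes, moved little (SD 0.12 and 0.17) but in the pattern of ANXA1 over the 24 arrays, with Pearson's r = 0.87 and 0.90, as a description with no p. Their r with KRT23, the keratin among the members, was 0.74 and 0.69. KRT18 ranged from 11.95 to 12.74, while ANXA1 ranged from 6.60 to 9.91. ANXA11 had r = 0.71 with ANXA1 at an SD of 0.09, and ANXA2 had 0.61 at an SD of 0.10.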
